A study of Mus musculus with 16 samples.

Results

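Simple epithelial keratins are the keratins that fill the single-layered epithelia of glands and ducts, and 5 of them were followed here in mouse stomach: Krt7 and Krt8 of type II, and Krt18, Krt19 and Krt20 of type I. They were taken by symbol from a table of read counts for 24964 gene symbols. Krt7 was selected on its measured response, which differed between the 2 genotypes of the study, so its values are given as a description with no test. The other 4 were chosen as keratins of the same kind of epithelium and were tested.

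A keratin filament is built from pairs of 1 type I and 1 type II chain, so the transcript levels of both types bear on the same structure. Krt8 with Krt18 is the basic pair of simple epithelia, and Krt19, a type I keratin with a very short tail, can take the place of Krt18. Krt20 is a type I keratin of the surface (foveolar) cells of the stomach and of differentiated intestinal cells, and Krt7 is a type II keratin of ducts, glands and transitional epithelium. Tristetraprolin (TTP), the product of Zfp36, binds AU-rich elements in the 3′ untranslated regions of transcripts and speeds their decay.

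RNA came from a 4 mm biopsy taken along the lesser curvature of the corpus, the acid-secreting body of the stomach, in female mice 8 weeks old. Wild-type (WT) mice were C57BL/6, and the TTPΔARE mice, whose Zfp36 lacks its own AU-rich element, were congenic on C57BL/6. The groups WT-A and TTP-A had gastric inflammation induced by adrenalectomy (ADX), the removal of the adrenal glands. The treatment label of WT-S and TTP-S names SPEM (spasmolytic polypeptide-expressing metaplasia, a mucous lineage that appears in injured corpus glands), the meaning of the letter S is not given, and S is used only as a group name. Each group had 4 libraries. The labels do not say that each library came from a different mouse, so p-values measure the spread between these libraries. In RNA from a whole biopsy, fewer cells of a type and less RNA per cell cannot be told apart.

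Libraries held 17453930 to 25849472 counts and 17607 to 18377 detected genes. Levels are in CPM, counts scaled to a common library size. Zfp36 checked the labels: its WT means were 62.0 ± 4.73 CPM (S) and 72.0 ± 11.9 CPM (A), its TTPΔARE means 122 ± 6.11 CPM (S) and 123 ± 9.54 CPM (A; SD, n = 4 for all), and the genotypes did not overlap. Summed parietal cell markers (14475 to 21722 CPM) and chief cell markers (48992 to 153389.5 CPM) were high in every library. WT-A 3 and WT-A 4 stood apart: across 11493 genes their deviation from the gene median rose with transcript GC content (Spearman rho 0.72 and 0.74, against at most 0.30 in size elsewhere). Differences are therefore also given for the 14 other libraries and for 16 with offsets that remove each library's trend on GC content. Transcripts of Krt8, Krt18 and Krt19 were GC-rich (57.1%, 56.4% and 57.6%), and genes within 1 percentage point of them were higher in that pair than in the 14 libraries by medians of 0.25, 0.24 and 0.25 on the log2 scale. Krt7 (52.3% GC) and Krt20 (49.5%) lay in a range where this median was 0.14 and 0.01.

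The genes lie in the type II and type I keratin clusters of mouse build GRCm38 (mm10). Krt7 (ENSMUSG00000023039.17) spans chr15:101411043-101430313 on the plus strand with 9 exons and encodes 457 residues. Krt8 (ENSMUSG00000049382.10) lies on the minus strand at chr15:101996698-102004482, with 9 exons and 490 residues. Krt18 (ENSMUSG00000023043.7) is the type I gene that sits in the type II cluster, at chr15:102028180-102032027 on the plus strand, with 7 exons and 423 residues. It is 23697 bases from Krt8, with no protein-coding gene between them. Krt19 (ENSMUSG00000020911.14, chr11:100140810-100148665, 6 exons, 403 residues) and Krt20 (ENSMUSG00000035775.2, chr11:99428403-99438150, 8 exons, 431 residues) are both on the minus strand of chromosome 11, 702659 bases apart. The start of Krt7 is overlapped by the antisense gene Gm671 (chr15:101395427-101412311, minus strand), and Krt8 by the long noncoding RNA gene Gm36026 (chr15:102004212-102009442, plus strand), which runs on into the gap before Krt18. Whether the counting used strand is not given in the sources used here, so reads from these genes cannot be told apart from those of Krt7 and Krt8 where they overlap. Of the 31-base words in the transcript, 32.3% in Krt8 (mostly shared with a Krt8 pseudogene) and 11.4% in Krt18 also occur in other genes, against 2.09% in Krt7, 0.517% in Krt19 and 0% in Krt20. How the counting treated reads from such stretches is not given in the sources used here, so the counts of Krt8 and Krt18 are uncertain.

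As the genotypes differ in the gene of TTP, the 3′ untranslated regions were read for the pentamer AUUUA, the core of AU-rich elements, on the transcript strand with overlaps counted. Krt7 held 13 in 2648 bases and Krt20 held 2 in 578 bases, whereas Krt8 (242 bases), Krt18 (66 bases) and Krt19 (103 bases) held 0. The longer word UAUUUAU, which overlaps the pentamer, occurred 4 times in Krt7 and 1 time in Krt20. The runs of overlapping pentamers in Krt7 and the single pentamers of Krt20 are shown with 8 bases on each side, the pentamers in capitals:
Krt7, chr15:101429970-101429982, plus strand: uaaaaaagAUUUAUUUAUUUAuucuaugu
Krt7, chr15:101430057-101430069, plus strand: gcccaaagAUUUAUUUAUUUAuuaugugu
Krt20, chr11:99428885-99428889, minus strand: gggagucuAUUUAucaagcug
Krt20, chr11:99428553-99428557, minus strand: uuugaauaAUUUAaaacaaac

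Such words are common. AUUUA occurred in 62.4% of 20117 annotated 3′ untranslated regions and UAUUUAU in 25.9%. Among 2290 regions close to that of Krt7 in length (4/5 to 5/4 of it), 95.3% held AUUUA, with a median of 5, and 4.10% held at least as many as Krt7. Among 2298 regions as close to that of Krt20, 56.7% held it. The count for Krt7 depends on the gene model: in RefSeq the gene ends 2507 bases earlier, only 141 bases of the region lie before that end, and 0 of the 13 pentamers do. A match is a stretch of letters, and binding by TTP was not measured.

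Per kilobase of coding sequence, the order of the 5 transcripts was the same in all 16 libraries. In WT-S the mean level was 1573 CPM per kb for Krt19, 1236 for Krt8, 467 for Krt18, 88.7 for Krt20 and 12.3 for Krt7. Neighbours in that order never overlapped within a group. Krt19 exceeded Krt8 by a factor of 1.22 (TTP-S) to 1.34 (WT-A), the smallest gap in the order. Krt19 made up 46.5% ± 1.03 of the summed level of the 5 in WT-S, Krt8 36.7% ± 1.02, Krt18 13.8% ± 0.615, Krt20 2.62% ± 0.135 and Krt7 0.370% ± 0.0939 (SD, n = 4). The corpus pool was thus mostly Krt19, Krt8 and Krt18, and Krt7 stayed a trace component even where it was highest, in WT-A (0.819% ± 0.304).

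**Figure D1:**
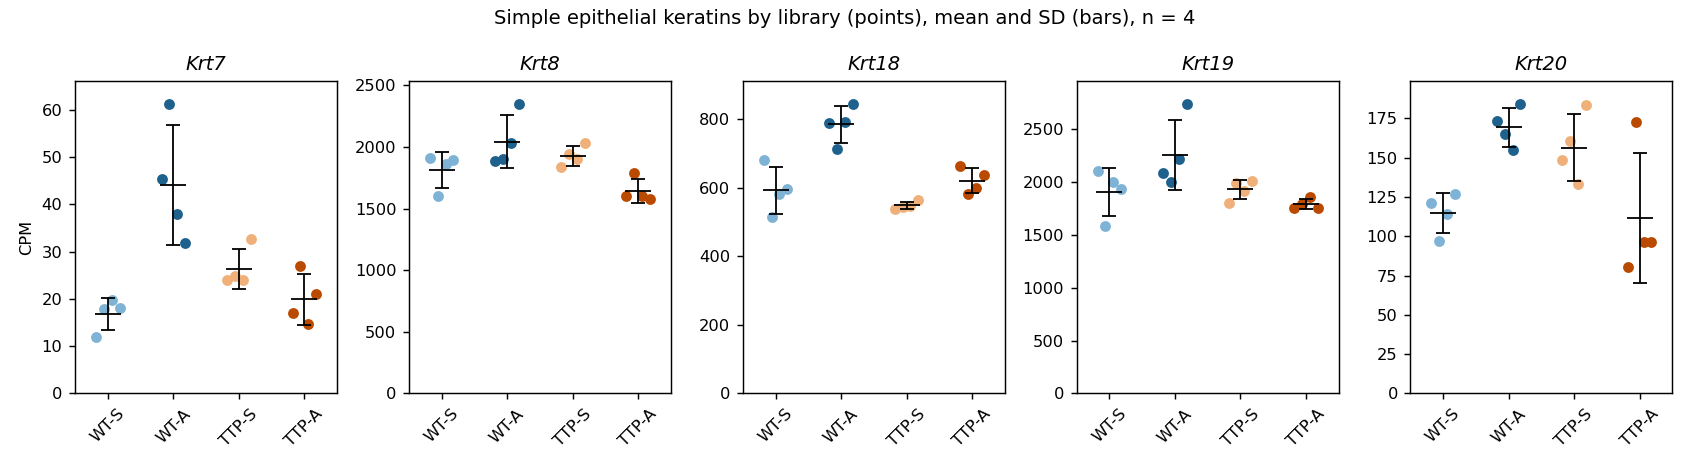
Level of each keratin in CPM (vertical axes from 0, a separate scale for each gene) in the 4 groups; points are libraries and bars are the mean and SD, n = 4. The WT-A libraries of Krt7 lie above all others but 1 TTP-S library, and the TTP-A library with Krt20 at 172 CPM stands away from the other 3.

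Krt7, the ductal type II keratin, had the largest differences of the 5 in WT and between the genotypes. The 4 WT-S libraries were at 11.9, 17.8, 19.7 and 18.1 CPM, and those of WT-A at 45.4, 61.2, 38.0 and 31.9 CPM. TTP-S had 23.9, 24.8, 23.9 and 32.7 CPM, whereas TTP-A had 17.0, 27.0, 14.6 and 21.1 CPM. Each WT-A library was therefore above each WT-S library, while in TTPΔARE mice the A libraries were mostly below the S libraries, with some overlap. The fitted log2 difference between A and S was 1.39 (SE 0.22), or 2.61-fold, in WT and -0.40 (SE 0.21) in TTPΔARE. The TTPΔARE mice were higher than WT in S by 0.64 (SE 0.22) and lower in A by 1.15 on the log2 scale (edgeR difference -1.15, SE 0.21), with no overlap in either. The difference of the 2 responses was -1.79 (SE 0.30), which is the value by which the gene was picked and is not a test of it. WT-A 3 and WT-A 4 were the lowest of the WT-A libraries for Krt7, and without them the WT difference was 1.66 (SE 0.22) and the difference of responses -2.06, against 1.26 and -1.68 with GC offsets. Raw counts of Krt7 ran from 212 to 448 in WT-S and from 734 to 1775 in WT-A.

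Krt8, the type II partner of Krt18, was abundant in every group. WT-S held 1910, 1600, 1863 and 1896 CPM and WT-A 1885, 1906, 2036 and 2348 CPM. TTP-S held 1837, 1940, 1899 and 2033 CPM and TTP-A 1605, 1791, 1599 and 1581 CPM. The 4 TTP-A libraries lay below all TTP-S and all WT-A libraries, whereas the WT groups overlapped.

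Krt18 is the type I partner of Krt8. Its WT-S libraries were at 681, 514, 581 and 596 CPM and its WT-A libraries at 790, 714, 793 and 844 CPM. TTP-S held 539, 545, 547 and 564 CPM, and TTP-A held 664, 583, 599 and 638 CPM. A was above S without overlap in both genotypes, and TTP-A was below WT-A without overlap. The TTP-S libraries were the closest together, and WT-S 1 was the highest of the S libraries.

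Krt19 was the most abundant of the 5. Its WT-S libraries were at 2102, 1580, 1993 and 1933 CPM, and its WT-A libraries at 2078, 2000, 2214 and 2732 CPM. TTP-S was at 1801, 1985, 1913 and 2010 CPM, and TTP-A at 1756, 1793, 1853 and 1749 CPM. The TTP-A libraries lay below all WT-A libraries, and the other pairs of groups compared overlapped.

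Krt20, the surface cell keratin, was lower than these. Its levels were 121, 96.9, 114 and 127 CPM (WT-S), then 174, 165, 155 and 184 CPM (WT-A). The TTPΔARE libraries had 149, 160, 133 and 183 CPM under S, and 80.3, 172, 96.3 and 96.4 CPM under A. WT-A and TTP-S were each above WT-S without overlap. TTP-A 2, at 172 CPM, was the only TTP-A library inside the range of TTP-S.

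In WT mice, the question was how the keratins differed between A and S. Of the 4 members tested, Krt18 and Krt20 rose past an adjusted p of 0.05, and the others did not. This is 2 of 4 members called higher, where 9.80% of the 15385 genes tested were called higher and 18.8% in either direction. Krt18 rose by 0.40 on the log2 scale (SE 0.08, edgeR adjusted p = 0.00377), or 1.32-fold. The call held when any 1 WT library was left out (0.34 to 0.48) and in the 14 libraries (0.34, edgeR adjusted p = 0.0231), and was lost with GC offsets (0.22, edgeR adjusted p = 0.0668). Krt20 rose by 0.56 (SE 0.18, edgeR adjusted p = 0.0396), or 1.48-fold. Its size hardly moved in the 14 libraries (0.56, edgeR adjusted p = 0.114) or with GC offsets (0.51, edgeR adjusted p = 0.0604), but the call was lost in both, and in 6 of the 8 fits without 1 WT library (up to adjusted p = 0.116 without WT-S 2). Markers of the acid-secreting parietal cells and the pepsinogen-secreting chief cells moved beside these: 4 of 6 parietal genes fell in WT (median -0.49), and of 5 chief cell genes 3 fell and 1 rose (median -0.68), where 8.99% of genes were called lower. With GC offsets 4 of 6 and 4 of 5 fell, beside 11.8% of genes. The chief cell sum was 78569 to 153389.5 CPM for WT-S beside 48992 to 103711 CPM for WT-A, and the parietal sum 17454 to 20993 beside 14475 to 21722 CPM. None of either list was at 0 in all libraries, and their part in the results for Krt18 and Krt20 was not tested.

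For Krt19 the WT difference was 0.25 (SE 0.10, edgeR adjusted p = 0.0781) and for Krt8 0.17 (SE 0.08, edgeR adjusted p = 0.126). Both were near 0 in the 14 libraries (0.10 and 0.06) and with GC offsets (0.04 and -0.03). Krt18 and Krt20 were higher in WT-A with no overlap of the libraries, which was so for 9.20% of genes.

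In TTPΔARE mice no member passed the test between A and S (edgeR, 0 of 4, with 2.90% of genes called), while 3 of the 4, Krt8, Krt18 and Krt20, had an unadjusted p under 0.05, as had 15.9% of genes. None passed by DESeq2, which called 5.44% of genes. Krt20 differed by -0.49 (SE 0.18, edgeR adjusted p = 0.165), with 3 of 4 TTP-A libraries below all of TTP-S. Without TTP-A 2 this became -0.78 (edgeR adjusted p = 0.00185), where 937 of 15522 genes were called. Of 8 fits of Krt20 that left out 1 library only this 1 passed, and the edgeR adjusted p reached 0.478 without TTP-A 1. Krt8 differed by -0.23 (SE 0.08, edgeR adjusted p = 0.129), and by the same amount with adjusted p = 0.0406 in the 14 libraries, where 6.26% of genes were called. Krt18 differed by 0.18 (SE 0.08, edgeR adjusted p = 0.241) and Krt19 by -0.11 (SE 0.10, edgeR adjusted p = 0.679). The libraries of Krt8 (lower in A) and Krt18 (higher in A) did not overlap between TTP-A and TTP-S. Such separation held for 13.7% of genes, 6.77% lower and 6.94% higher.

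**Figure D2:**
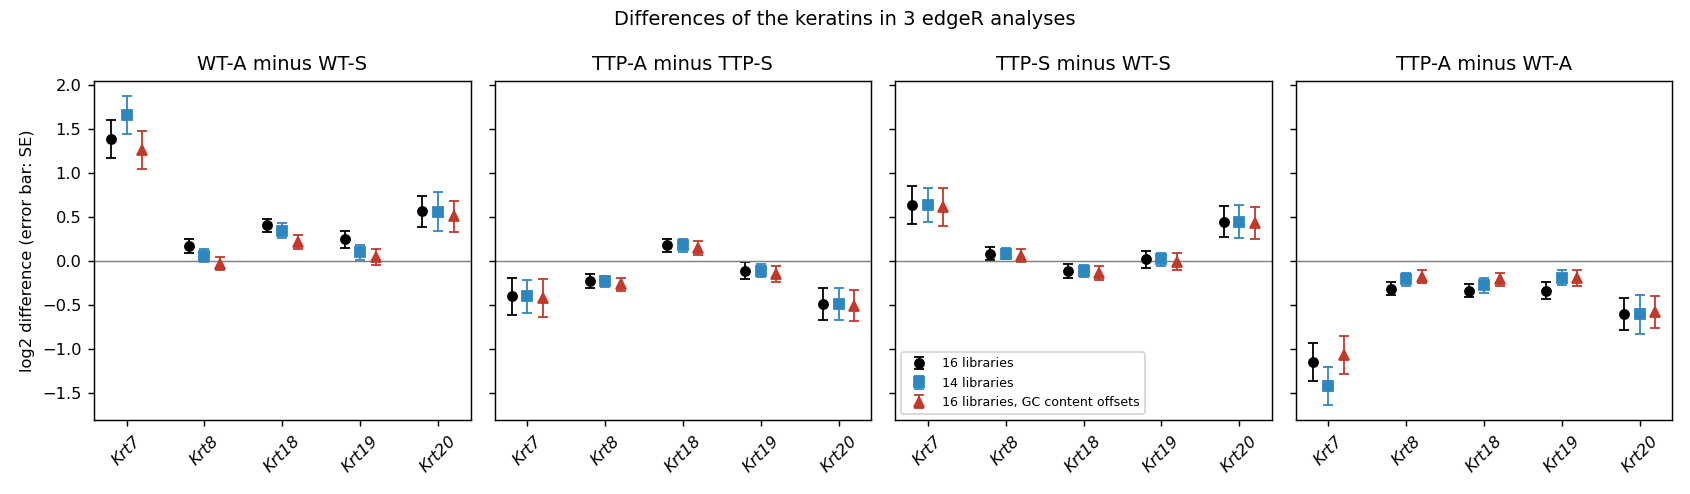
Log2 difference (vertical axis, bars are the SE) of each keratin in 4 comparisons, from all 16 libraries (circles), the 14 libraries without WT-A 3 and WT-A 4 (squares) and 16 libraries with GC content offsets (triangles). In WT, Krt8 goes from 0.17 to 0.06 and -0.03 across the 3 analyses, while Krt7 stays between 1.26 and 1.66.

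Between the genotypes in S, none of the 4 was called by edgeR (0.0325% of genes were) or by DESeq2 (0.617%), and only Krt20 had an unadjusted p under 0.05, as had 7.49% of genes. Krt20 differed by 0.45 (SE 0.18, edgeR adjusted p = 0.556), with TTP-S above WT-S in each of 16 pairs of libraries. Of the 4, only Krt20 was higher in TTP-S without overlap, which 3.50% of genes were. Krt8 (0.08, edgeR adjusted p = 0.922), Krt18 (-0.11, edgeR adjusted p = 0.841) and Krt19 (0.02, edgeR adjusted p = 0.998) were near 0.

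Between the genotypes in A, all 4 had negative values and 2 of the 4 passed the test, where 2.30% of genes were called lower and 5.17% in either direction. Krt18 fell by 0.34 on the log2 scale in TTPΔARE against WT (difference -0.34, SE 0.08, edgeR adjusted p = 0.0253). Krt8 fell by 0.31 (difference -0.31, SE 0.08, edgeR adjusted p = 0.0339). Both calls were lost without WT-A 3 and WT-A 4 (-0.28, adjusted p = 0.102 and -0.21, adjusted p = 0.150) and with GC offsets (-0.21, adjusted p = 0.136 and -0.18, adjusted p = 0.190). Leaving out 1 library ended the call of Krt18 in 4 of 8 fits and of Krt8 in 5 of 8, with the highest adjusted p without TTP-A 3 (0.0814 and 0.0986). In the same comparison 2 of 6 parietal genes and 2 of 5 chief cell genes rose (medians 0.43 and 0.78), beside 2.87% of genes. With GC offsets 0 of 6 parietal genes (median 0.24) and 3 of 5 chief cell genes (median 0.93) did so, beside 2.06% of genes, and their part was not tested.

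Krt19 differed by -0.34 (SE 0.10, edgeR adjusted p = 0.0523) and Krt20 by -0.60 (SE 0.18, edgeR adjusted p = 0.0584) between the genotypes in A. In the 14 libraries these were -0.19 and -0.60. Without TTP-A 2 the value of Krt20 was -0.90 (edgeR adjusted p = 0.00348), where 265 of 15522 genes were called. Of 8 fits of Krt20 that left out 1 library 2 passed, and the edgeR adjusted p reached 0.157 without TTP-A 3. Krt8, Krt18 and Krt19 were lower in TTP-A without overlap, as were 6.22% of genes.

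Whether the response to A differed between the genotypes was tested by the interaction term. None of the 4 passed (edgeR, with 0.0585% of genes called), although all 4 had an unadjusted p under 0.05, as had 15.2% of genes. Krt20, which rose in WT, had the largest term at -1.05 (SE 0.25, edgeR adjusted p = 0.121). By DESeq2, which called 1.71% of genes here, 2 of the 4 passed, Krt20 with the same size (adjusted p = 0.0101) and Krt8 (-0.39, adjusted p = 0.0402). For Krt20, edgeR without TTP-A 2 gave -1.35 with adjusted p = 0.00281, where 26 of 15522 genes were called. Of 16 such fits of Krt20 only this 1 passed, and the edgeR adjusted p reached 0.249 without TTP-A 3. The terms of Krt8 (-0.40, edgeR adjusted p = 0.144), Krt19 (-0.35, edgeR adjusted p = 0.252) and Krt18 (-0.23, edgeR adjusted p = 0.327) were smaller. With GC offsets they were -0.24, -0.19 and -0.07, against -1.01 for Krt20. All these comparisons share groups, so the same WT-A libraries enter several of them.

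**Figure D3:**
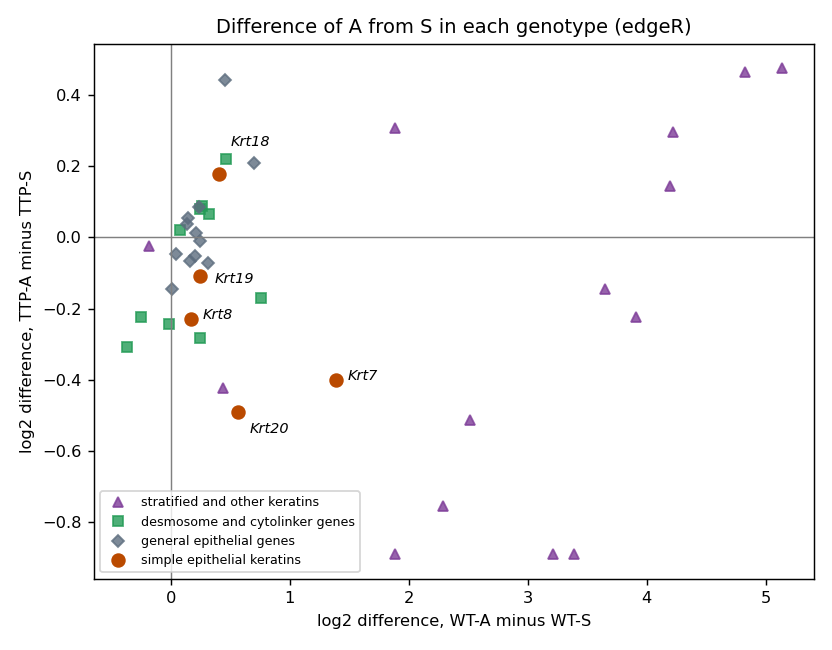
Log2 difference of A from S in WT (horizontal axis) and in TTPΔARE mice (vertical axis) for the 5 keratins (circles) and the genes of 3 other lists, edgeR on 16 libraries; the axes have different scales. Krt7, Krt8, Krt19 and Krt20 lie at the lower right of the origin and Krt18 at the upper right, and most stratified keratins (triangles) lie far to the right.

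The balance between keratins was then measured within each library, which does not depend on library scaling. For WT-S the log2 ratio of Krt18 to Krt8 counts was -1.49, -1.64, -1.68 and -1.67, and for WT-A -1.25, -1.42, -1.36 and -1.48. For TTP-S it was -1.77, -1.83, -1.80 and -1.85, and for TTP-A -1.27, -1.62, -1.42 and -1.31. Relative to Krt8 there was thus more Krt18 in A than in S in both genotypes, and the 2 A groups overlapped. A and S did not overlap, but in WT only narrowly, with WT-A 4 at -1.475 and WT-S 1 at -1.488. How often the ratios of other gene pairs separate in this way was not measured.

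The ratio of Krt18 to Krt8 was higher in A by 0.24 in WT and by 0.41 in TTPΔARE, and lower by 0.19 in TTP-S than in WT-S (difference -0.19). Each of these 3 had p = 0.0286, the smallest that an exact two-sided permutation of 4 against 4 libraries (70 arrangements) can give, and adjusted p = 0.0762 over 8 such tests. None of the 3 therefore passed after adjustment. The 2 A groups differed by -0.03 (exact permutation p = 0.829). WT-S 1, at -1.49, lay closest to the A groups among the S libraries. Transcript GC content is within 1 percentage point in these genes, and without WT-A 3 and WT-A 4 the WT difference was 0.28.

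The ratio of Krt19 to Krt8 was close to even. WT-S had a mean log2 value of 0.06 ± 0.070, WT-A 0.14 ± 0.062, TTP-S -0.00029 ± 0.028 and TTP-A 0.12 ± 0.088 (SD, n = 4). All 4 pairs of groups compared overlapped. The largest difference was 0.12 between TTP-A and TTP-S (exact permutation p = 0.0857, adjusted p = 0.171).

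**Figure D4:**
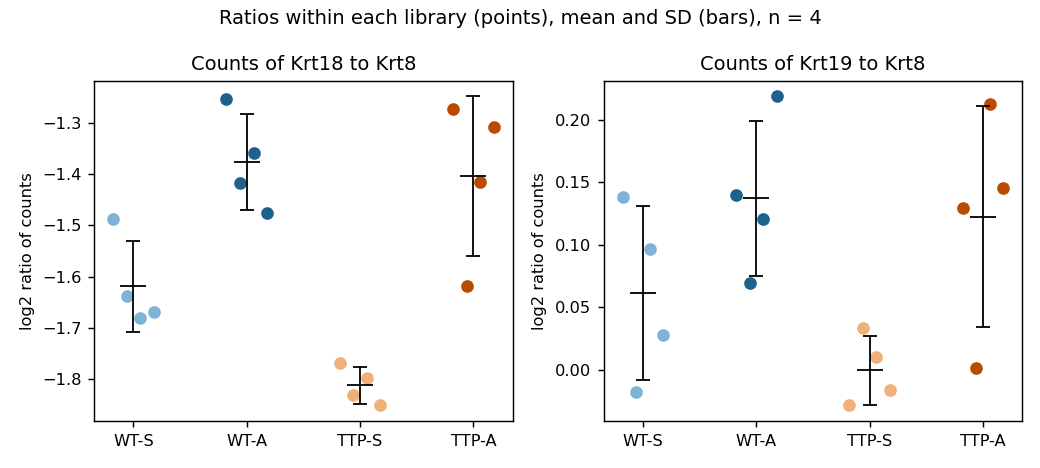
Log2 ratio of counts within each library (points) with mean and SD (bars, n = 4) for Krt18 to Krt8 (left) and Krt19 to Krt8 (right); the vertical scales differ and do not start at 0. On the left the TTP-S libraries lie between -1.85 and -1.77, below every other library.

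The keratins were set beside 12 genes expressed in epithelia at large, among them the adhesion genes Epcam and Cdh1 and the protease inhibitors Spint1 and Spint2. The mean log2 CPM of these genes was lowest in WT-S (6.94) and highest in WT-A (7.18), with both TTPΔARE groups between. In WT, 8 of the 12 rose between S and A (median 0.21, against 0.01 over all genes tested), beside 9.80% of all genes. In the 14 libraries 3 of the 12 rose, beside 4.64% of genes, and with GC offsets 1 of the 12, beside 5.88%, a share near that of all genes. In A, 4 of the 12 fell in TTPΔARE against WT, namely Elf3, Spint1, Spint2 and Tjp3, beside 2.30% of genes. All 4 missed the threshold in the 14 libraries (edgeR adjusted p from 0.116 to 0.199, with 0.539% of genes called lower), and with GC offsets 0 of the 12 were called lower, beside 1.22% of genes. Relative to the mean of these genes, the WT difference between A and S was -0.07 for Krt8, 0.01 for Krt19, 0.17 for Krt18, 0.33 for Krt20 and 1.13 for Krt7. In TTPΔARE the same values were -0.27, -0.14, 0.14, -0.58 and -0.46. In WT, Krt8 and Krt19 thus lay close to the mean of the epithelial genes. Among the 4 members not picked by their response, Krt20 lay farthest from that mean in both genotypes. The values of Krt7 are a description, since its response was the reason for picking it. All these relative values are from the 16 libraries without GC offsets.

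Desmosomes and cytolinkers anchor keratin filaments to the membrane and to other filaments. Of 10 such genes, 4 rose in WT between S and A: Jup (plakoglobin), Pkp3 (plakophilin), Eppk1 (epiplakin) and Plec (plectin), by 0.24, 0.26, 0.47 and 0.32 on the log2 scale, where 9.80% of all genes were called higher. The median of the list was 0.25, and these 4 missed the threshold in the 14 libraries (edgeR adjusted p from 0.0588 to 0.299). With GC offsets the median was 0.03, with 0 of the 10 called higher and 1 lower, beside 5.88% and 11.8% of all genes. In TTPΔARE the median was -0.07. Dsp (desmoplakin) had 907 ± 68.7 CPM in WT-S beside 897 ± 59.9 in WT-A (SD, n = 4).

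The other intermediate filament genes of the cytoplasm numbered 8. Vim (vimentin) and Des (desmin), of mesenchyme and muscle, rose in WT by 0.47 and 0.38 (2 of 8, beside 9.80% of genes called higher), with values in the 14 libraries of 0.19 and 0.25 (edgeR adjusted p = 0.104 and 0.266). With GC offsets 1 of the 8 was called higher in WT, beside 5.88% of genes. Nes (nestin) and Gfap, the glial filament, rose in TTPΔARE by 0.60 and 0.95 (2 of 8, where 1.55% of genes were called higher). In A, Des fell by 0.46 in TTPΔARE against WT (edgeR adjusted p = 0.0406). The call was lost in the 14 libraries (-0.33, edgeR adjusted p = 0.204) and with GC offsets. The 5 smooth muscle markers moved with Des: 4 rose in WT (median 0.36), beside 9.80% of genes, and 3 fell in TTPΔARE against WT in A (median -0.35), beside 2.30%. Their sum was 5961 to 6685 CPM for WT-S, 7015 to 8456 for WT-A, 5198 to 7306 for TTP-S and 5657 to 6792 for TTP-A. In the 14 libraries 1 rise and 0 falls were called (4.64% of genes higher and 0.539% lower), and with GC offsets 2 rises and 0 falls (5.88% and 1.22%). Their part in the results for Des and Vim was not tested.

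Keratins of stratified epithelium and other keratins were measured too (14 genes, all tested). In WT, 5 of them rose between S and A: Krt6a, Krt6b, Krt16 and Krt17, which accompany wounding and activation of keratinocytes, and Krt78 (5 of 14, beside 9.80% of genes called higher). WT-S and WT-A had 15.3 ± 6.35 and 56.4 ± 25.7 CPM of Krt78, and 0.257 ± 0.478 and 8.66 ± 13.8 CPM of Krt16 (SD, n = 4). For Krt16 the SD exceeds the mean in both, as it does for Krt6a, Krt6b and Krt17. The median of the list was 3.30 on the log2 scale in WT and -0.18 in TTPΔARE, where the 5 had adjusted p from 0.787 to 0.976. The interaction called 0 of the 14, beside 0.0585% of genes. In S all 14 were higher in TTPΔARE than in WT (median 1.83), with 0 called, beside 0.0325% of genes. In A, only Krt23 of the 14 passed between the genotypes, with 130 ± 9.87 CPM in WT-A against 153 ± 9.35 in TTP-A (SD, n = 4, log2 difference 0.23, edgeR adjusted p = 0.0442, with 2.87% of genes called higher).

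Stratified keratins belong to the squamous forestomach, so 9 other squamous markers were summed in each library. WT-S libraries had 63.5 to 167 CPM, WT-A 112 to 701, TTP-S 125 to 431 and TTP-A 79.1 to 244. All 8 of the markers tested had higher means in WT-A than in WT-S, with a median difference of 2.72 and adjusted p from 0.0516 to 0.198. In the 14 libraries the median was 3.12 and 1 of the 8 was called higher, Sprr1a (1.11, edgeR adjusted p = 0.0497), beside 4.64% of genes. With GC offsets the median was 2.60 and 0 were called higher, beside 5.88%. None of the 9 was at 0 in all libraries. Over the 16 libraries, as a description on the log2 scale, Krt7 had an r of 0.68 with this sum, the highest of the 12 marker sums computed. WT-A 2 had both the highest squamous sum (701 CPM) and the highest Krt7 (61.2 CPM). WT-A 1 had Krt7 at 45.4 CPM with a squamous sum of 112 CPM, inside the WT-S range, and TTP-S 1 had the next highest sum, 431 CPM, with Krt7 at 23.9 CPM. Sprr1a, a cornified envelope gene, supplied much of the sum, with WT means of 74.6 ± 17.5 CPM under S and 135 ± 62.1 under A, and TTPΔARE means of 140 ± 30.4 and 112 ± 42.8 (SD, n = 4), so the sum does not follow the 9 markers evenly. The part of squamous tissue in the result for Krt7 was not tested.

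Other sources of Krt7 transcript were looked at in the same way. The 5 duct genes summed to 180 to 198 CPM for WT-S, 250 to 494 for WT-A, 134 to 158 for TTP-S and 180 to 285 for TTP-A. They rose in WT in 2 of 5 cases (9.80% of all genes did so), Sox9 (0.44) and Spp1 (1.87), both of which are also expressed in stomach. In the 14 libraries and with GC offsets 3 of 5 were called higher, beside 4.64% and 5.88% of genes. In TTPΔARE all 5 were higher in A, with 1 called (beside 1.55%), while Krt7 was lower. In A, 1 of 5 was called lower in TTPΔARE against WT, beside 2.30% of genes. As a description over the 16 libraries, the r of Krt7 was 0.60 with the duct sum and -0.61 with the chief cell sum. Of the 7 exocrine pancreas genes, 6 (Prss1, Cpa1, Cela2a, Cela3b, Pnlip and Ctrb1) had at most 8 counts in any library and were not tested. The other, Cel (a lipase), had means of 11.8 ± 2.59 CPM for WT-S and 14.1 ± 4.94 CPM for WT-A (SD, n = 4), a difference of 0.25 (edgeR adjusted p = 0.399). The mesothelial sum ranged from 33.2 to 80.9 CPM, nearly all of it Gpm6a. In WT, 2 of the 5 mesothelial genes tested rose (9.80% of all genes did so), Upk3b and Lrrn4, each with a mean below 1 CPM in every group. In the 14 libraries 1 of the 5, Lrrn4, was called higher, beside 4.64% of genes. With GC offsets 1 was called higher and 1 lower, beside 5.88% and 11.8%. Their part in the result for Krt7 was not tested.

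**Figure D5:**
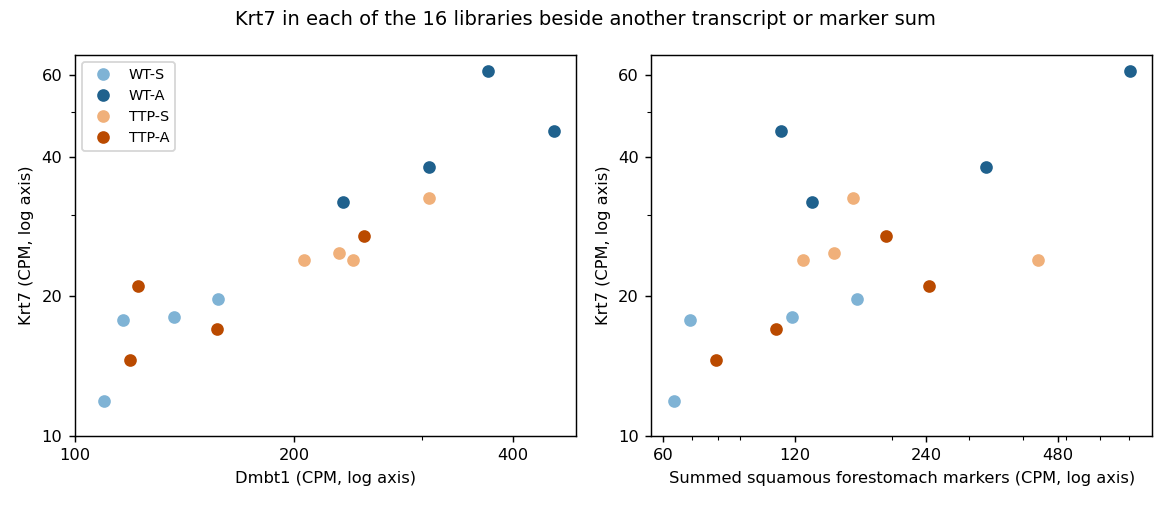
Krt7 (vertical axes, CPM, log scale) in each of the 16 libraries against Dmbt1 (left) and the summed squamous forestomach markers (right), both in CPM on log axes. On the right, WT-A 1 (45.4 CPM of Krt7) lies at a squamous sum of 112 CPM, within the WT-S range of a sum that rests largely on Sprr1a in WT-S.

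Genes with the profile most like each keratin were found by Pearson's r of log2 CPM over 16 libraries among 13353 genes, as a description, since the libraries fall into groups and all genes of a library share its scaling. For Krt7 the first was Dmbt1, a secreted mucosal scavenger receptor protein that is also in the list of mucous neck and SPEM genes (r = 0.92, and 0.76 after removing group means). Dmbt1 was picked by its r over these same libraries, so a shared order of the groups is not a separate observation. The groups came in the same order for Dmbt1 as for Krt7: WT-A had 341 ± 94.0 CPM, TTP-S 246 ± 42.8, TTP-A 162 ± 60.9 and WT-S 130 ± 21.6 (SD, n = 4). Next came Cdh24, Rpl17, Lynx1 and Anxa1, with r between 0.83 and 0.85.

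For Krt18 the first was Spint2 (r = 0.97), followed by Epop, Nadk, Gpx2 and Dpm2. Gpx2, a glutathione peroxidase of the gut epithelium, is in the mucous neck and SPEM list too, and rose in both genotypes between S and A, by 1.25 in WT (edgeR adjusted p = 0.00179) and 0.83 in TTPΔARE (edgeR adjusted p = 0.0369). The sum of the 8 mucous neck and SPEM genes moved with Krt18: WT-S had 2809 to 5333 CPM, WT-A 5239 to 5949, TTP-S 2968 to 3560 and TTP-A 3729 to 6772. The highest S value, 5333 CPM, belonged to WT-S 1, which also had the highest Krt18 of the S libraries (681 CPM). Clu and Muc6 supplied much of the neck and SPEM sum, with means of 1935 and 1036 CPM in WT-S. Within this list, 4 of 8 rose in WT, beside 9.80% of genes, and 2 of 8 in TTPΔARE, beside 1.55%. Tff2 differed by -0.06 in WT and -0.20 in TTPΔARE, and Dmbt1 by -0.61 in TTPΔARE, none of them called. In A, Gpx2 (-0.98) and Dmbt1 (-1.08) fell in TTPΔARE against WT, 2 of 8 beside 2.30% of genes. This was 1 of 8 in the 14 libraries, beside 0.539%, and 2 of 8 with GC offsets, beside 1.22%. Other marker sums moved with Krt18 too. As a description over the 16 libraries on the log2 scale, its r was 0.87 with the sum of 5 tuft cell genes, 0.85 with the neck and SPEM sum, 0.78 with smooth muscle, 0.78 with duct and -0.78 with chief cell genes. The tuft sum was 272 to 444 CPM for WT-S, 391 to 456 for WT-A, 268 to 345 for TTP-S and 328 to 395 for TTP-A. Of 4 tuft genes tested, 1 rose in WT (beside the same 9.80%), the tuft cell regulator Pou2f3 (0.67, edgeR adjusted p = 0.0333), and none did so in the 14 libraries or with GC offsets. The part of these cell types in the result for Krt18 was not tested.

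For Krt8 the first was Gjb1, a gap junction connexin of gland cells (r = 0.96), then Clic1, Ttc22, Mvp and Mapk13. For Krt19 it was Mvp (r = 0.92), then Sdcbp2, Lsr, Dnm2 and Gsdmd. Mvp, the major vault protein, was thus among the first 5 of both, and Krt8 and Krt19 had an r of 0.89 with each other, also after removing group means. Krt8 and Krt18, the partners in the filament, had an r of 0.45, which was 0.04 in the 14 libraries and 0.54 after removing group means.

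For Krt20 the first was Aqp3, a water and glycerol channel of epithelia (r = 0.91), then Coro2a, Phgr1, Sulf2 and Fhl1. The surface mucous markers, 6 genes that include Muc5ac and Gkn1, summed to 60080.1 to 68689 CPM for WT-S, 41335 to 59284 for WT-A, 63281 to 68422 for TTP-S and 34425 to 60449 for TTP-A. In WT the surface sum was therefore lower in A while Krt20 was higher, with a narrow gap between 59284 CPM (WT-A) and 60080.1 CPM (WT-S). In TTPΔARE the surface sum was lower in A, and so was Krt20 (not called). In WT 0 of the 6 genes were called lower, beside 8.99% of genes. In the 14 libraries 3 were (897 of 15597 genes) and with GC offsets 2 (11.8%). Gkn3 was higher in WT-A, by 1.09 (edgeR adjusted p = 0.107). In TTPΔARE 1 of the 6, Muc5ac, was called lower, beside 207 of 15385 genes. Within TTP-A, the library with the highest surface sum, TTP-A 2, was also the one with the highest Krt20. The intestinal regulators Cdx1 and Cdx2 had at most 3 counts in any library. Of the 4 other intestinal markers, which were tested, 1 rose in WT, beside 9.80% of genes: Alpi (intestinal alkaline phosphatase), from 0.77 ± 0.44 to 2.37 ± 0.82 CPM (SD, n = 4), by 1.66 on the log2 scale (edgeR adjusted p = 0.0283). Vil1 (villin), which supplied most of the sum, had 67.6 ± 21.9 CPM for WT-S and 91.3 ± 6.26 CPM for WT-A (SD, n = 4; edgeR adjusted p = 0.0729). Fabp2 (4.41 and 1.95 CPM) and Muc2 (1.09 and 1.32 CPM) did not pass the test. The 6 genes summed to 52.6 to 101 CPM for WT-S, 87.6 to 102 for WT-A, 66.6 to 89.9 for TTP-S and 81.4 to 91.7 for TTP-A. The part of surface and intestinal cell types in the result for Krt20 was not tested.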

How the data were processed

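Reads from 16 mouse stomach libraries were counted per gene symbol, and the deposited table holds raw counts, 1 column for each library. The submitters' processing notes name STAR 2.7.0f, featureCounts, Subread 1.6.4, DESeq2 and mm10; the annotation and strandedness used in counting are not given in the sources used here. Groups came from the sample titles.

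Counts were fitted as deposited with edgeR 4.0.16 (R 4.3.3): filterByExpr, which left 15385 genes and all 5 keratins, TMM scaling, and a quasi-likelihood fit of the 4 group means over 16 libraries. P-values were adjusted by Benjamini-Hochberg over all genes tested, and an adjusted p under 0.05 is a call. CPM is scaled by TMM, and log2 CPM uses a prior count of 2. Ratios of keratins were compared by exact two-sided permutation. The procedure was tested on simulated data. Gene models, GC content and 3′ untranslated regions came from GENCODE (97.8% of symbols matched), and gene ends for comparison from RefSeq on GRCm38.p6. GC offsets are loess curves (span 0.5) over the 98.9% of tested genes with a value.

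The members and the gene lists were chosen with earlier results of these data known. Named genes are the members, the genes of the lists and, per member, the 5 with the highest Pearson's r among genes with a mean of at least 1 CPM. Alternatives were DESeq2 1.42.0 (size factors and Wald test), 2 other filters, the replicate block, 14 libraries, GC offsets, only the groups compared, and leaving out each library. Same-numbered libraries did not deviate together (24 pairs, r from -0.51 to 0.33), so the main fit has no block. Replicates differed by more than counting noise (chi-square per degree of freedom 4.69 to 89.5 over 24 pairs). Counts carry no molecular identifiers.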

Additional observations from a re-analysis of the deposited data

Results flagged for a closer look

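In groups of 4 libraries, 3 of 28 groups tested had 1 library far from the others (by Dixon's test at the 95% level), and chance flags about 1 in 20 groups. Krt7 in TTP-S had its highest library at 32.7 CPM (TTP-S 4), with the other 3 between 23.9 and 24.8 CPM. Krt8 in WT-S had its lowest library at 1600 CPM (WT-S 2), with the other 3 between 1863 and 1910 CPM. Krt8 in TTP-A had its highest library at 1791 CPM (TTP-A 2), with the other 3 between 1581 and 1605 CPM.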

How the results depend on the processing

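Other size factors and filters changed no call of a keratin. In the 14 libraries, Krt8 between A and S in TTPΔARE passed (-0.23), Krt8 (-0.21) and Krt18 (-0.28) between genotypes in A and Krt20 in WT (0.56) did not, and the Krt19 to Krt8 ratio between genotypes in A turned sign (0.018). With GC offsets, Krt8 in WT (-0.028) and Krt19 between genotypes in S (-0.0056) turned sign, and Krt18 (0.22) and Krt20 (0.51) in WT and Krt8 (-0.18) and Krt18 (-0.21) between genotypes in A no longer passed. With only the groups compared, Krt8 (-0.23) and Krt18 (0.18) in TTPΔARE passed, and Krt8 (-0.31) and Krt18 (-0.34) between genotypes in A did not. By DESeq2, Krt19 (-0.33) and Krt20 (-0.60) between genotypes in A and the interactions of Krt8 (-0.39) and Krt20 (-1.05) passed. The causes were not tested.

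Numbers of genes called, in the order 14 libraries, GC offsets, groups compared and DESeq2, were 977, 704, 1195 and 854 for TTPΔARE, 57, 20, 60 and 97 between genotypes in S, and 292, 499, 1 and 1619 in A. For WT they were 1620 (14 libraries) and 675 (groups compared), and for the interaction 46, 19 and 256 (14 libraries, GC offsets and DESeq2). The replicate block changed no keratin's call (Krt18 in WT 0.41) and gave 4 interaction calls. The numbers did not pair the samples: 3 of 16 libraries correlated best with their own number.

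Leaving out 1 library gave 1254 to 4977 calls in WT, 60 to 937 in TTPΔARE, 1 to 15 between genotypes in S, 86 to 3202 in A and 2 to 211 for the interaction. Values ran from 0.14 to 0.30 for Krt19 and 0.49 to 0.62 for Krt20 in WT, -0.78 to -0.36 for Krt20 in TTPΔARE, -0.061 to 0.070 for Krt19 in S, and in A -0.36 to -0.24 for Krt8, -0.38 to -0.30 for Krt18, -0.39 to -0.23 for Krt19 and -0.90 to -0.48 for Krt20. The Krt20 interaction ran from -1.35 to -0.92, and in A the ratios to Krt8 from -0.071 to 0.044 (Krt18) and -0.045 to 0.025 (Krt19). Scaling by length leaves differences of the ratios as they are.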
